A study of Mus musculus with 267 samples.

Results

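CEBPb binding was compared between IL-4-stimulated macrophages with and without a myeloid deletion of Egr2, at the places where EGR2 itself binds after IL-4. The sites were 4677 regions of 300 bp, intronic (2606) or intergenic (2071) by the deposited annotation, each centred on an EGR2 peak that C57 macrophages held after 24 h of IL-4, out of 30675 sites of the EGR2 time course. The authors label the set as EGR2 peaks induced by 24 h of IL-4, and no site is listed with a basal C57 EGR2 peak. All sites of the set were used here, without selection by CEBPb signal. How the authors narrowed the time course to this set is not stated in the data used here. The comparison used 4 CEBPb ChIP-seq libraries at 24 h of IL-4, with 4 basal libraries for context, of 267 samples in the series.

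All groups were bone marrow-derived macrophages of young adult female mice, grown for 7 days with M-CSF. All groups of the Egr2 comparison carried floxed Egr2 alleles (Egr2flfl). Sites were also described by EGR2 and CEBPb data of strain libraries not labelled with these alleles. These were C57 for EGR2, and C57, BALB, NOD, PWK and SPRET for CEBPb peaks. The LyzMCreEgr2flfl group carried in addition a Cre recombinase driven by the lysozyme M promoter, which is active in myeloid cells, so that Egr2 is deleted in that lineage. Each genotype was measured without treatment (basal) and after 24 h of IL-4 at 20 ng/mL, with 2 libraries per group. Nothing in the labels says that the 2 libraries came from separate mice, so p-values measure the spread between these libraries, which may be technical. The table holds ChIP signal and no RNA, and the extent of the Egr2 deletion was not checked here.

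CEBPb (C/EBPβ) is a basic leucine zipper factor that binds palindromes around TTGC and GCAA, and with PU.1 it helps to set up the enhancers of macrophages. IL-4 signals through STAT6 to an alternatively activated state, and the zinc finger factor EGR2, which binds GC-rich elements, is among the regulators that STAT6 induces. ChIP-seq recovers DNA fragments crosslinked to a factor, and the number of tags in a window is read as its occupancy there. In bulk cells, fewer cells with the factor at a site and less of it per cell cannot be told apart.

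The sequences of 5 sites are printed as examples. They are 3 sites among the largest losses (Lims1, Jarid2, Tgif1), the main site near the IL-4-induced regulator Irf4, and a site near Hlx with high CEBPb in every library. Bases are from the plus strand of the GRCm38 (mm10) reference. Capitals mark matches on either strand to the C/EBP motif TTGCNNAA or the EGR motif GNGTGGG.
Lims1 site, chr10:58376707-58377006: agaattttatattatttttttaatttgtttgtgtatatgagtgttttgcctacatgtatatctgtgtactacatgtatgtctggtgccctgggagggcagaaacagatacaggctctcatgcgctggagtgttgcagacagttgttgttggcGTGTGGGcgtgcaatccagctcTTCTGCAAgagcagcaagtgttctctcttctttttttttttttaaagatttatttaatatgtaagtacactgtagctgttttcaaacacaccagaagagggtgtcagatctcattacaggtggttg
Jarid2 site, chr13:44704123-44704422: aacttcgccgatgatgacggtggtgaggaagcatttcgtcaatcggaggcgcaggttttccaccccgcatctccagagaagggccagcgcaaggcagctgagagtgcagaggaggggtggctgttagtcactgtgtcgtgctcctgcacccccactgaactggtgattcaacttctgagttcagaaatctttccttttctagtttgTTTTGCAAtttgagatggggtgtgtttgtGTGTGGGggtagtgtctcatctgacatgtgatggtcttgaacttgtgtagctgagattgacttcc
Tgif1 site, chr17:70780929-70781228: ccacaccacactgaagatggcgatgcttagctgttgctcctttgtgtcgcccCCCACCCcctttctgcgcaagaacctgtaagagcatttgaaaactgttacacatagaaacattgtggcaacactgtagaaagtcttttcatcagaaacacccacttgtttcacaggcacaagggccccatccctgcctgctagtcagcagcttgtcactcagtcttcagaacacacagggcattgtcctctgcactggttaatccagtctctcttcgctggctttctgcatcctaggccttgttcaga
Irf4 site, chr13:30788038-30788337: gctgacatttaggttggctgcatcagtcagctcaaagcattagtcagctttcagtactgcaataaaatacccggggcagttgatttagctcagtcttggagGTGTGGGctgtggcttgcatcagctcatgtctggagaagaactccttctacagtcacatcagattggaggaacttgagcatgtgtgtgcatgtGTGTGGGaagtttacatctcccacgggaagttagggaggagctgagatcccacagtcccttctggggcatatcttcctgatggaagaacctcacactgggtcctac
Hlx site, chr1:184536420-184536719: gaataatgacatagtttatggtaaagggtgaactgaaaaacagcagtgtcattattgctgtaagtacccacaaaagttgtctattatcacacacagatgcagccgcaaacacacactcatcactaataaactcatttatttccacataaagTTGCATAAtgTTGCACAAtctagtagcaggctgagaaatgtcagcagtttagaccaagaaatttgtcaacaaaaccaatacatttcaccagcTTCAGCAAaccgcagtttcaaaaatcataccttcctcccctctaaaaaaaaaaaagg
The Lims1 and Jarid2 windows each held 1 match of either motif, the Tgif1 window 1 EGR match and the Irf4 window 2. The Hlx window held 3 C/EBP matches and no EGR match. No match of one motif overlapped a match of the other in these windows. The Lemd1 and Mical2 sites, also among the largest losses, held neither motif. Over all sites, 20.6% held the C/EBP letters and 46.7% the EGR letters, against 11.7% and 21.6% of windows of the same width lying 1500 bp to either side.

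CEBPb occupancy of the sites, with libraries scaled to their totals, was lower in LyzMCreEgr2flfl macrophages after 24 h of IL-4. The size of the difference depended on that scale, as given below. Values are HOMER tags in the window per 10000000 tags of the library, called tags from here on. The median site held 18.1 and 13.8 tags in the Egr2flfl libraries and 4.75 and 6.43 in the LyzMCreEgr2flfl libraries. In the basal state the medians were 4.56 and 10.6 tags in Egr2flfl and 2.91 and 5.15 in LyzMCreEgr2flfl. The genotypes did not overlap at 24 h, and did overlap in the basal state.

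The 8 libraries held 9325865 to 16536497 tags, so 1 tag of the scale stood for 0.933 to 1.65 reads. At 24 h the sites took 2.09% and 1.35% of all tags in Egr2flfl and 1.01% and 0.826% in LyzMCreEgr2flfl. Basal libraries of the same genotype differed about as much from each other, at 0.931% and 2.02% in Egr2flfl and 0.701% and 1.21% in LyzMCreEgr2flfl. Summed over the sites, LyzMCreEgr2flfl held 0.534 of the Egr2flfl tags at 24 h (exact permutation test, two-sided, p = 0.333, the smallest p that 2 against 2 allows) and 0.649 in the basal state (exact permutation test, p = 0.667). The part that the overall enrichment of a library took in these sums was not tested.

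**Figure D1:**
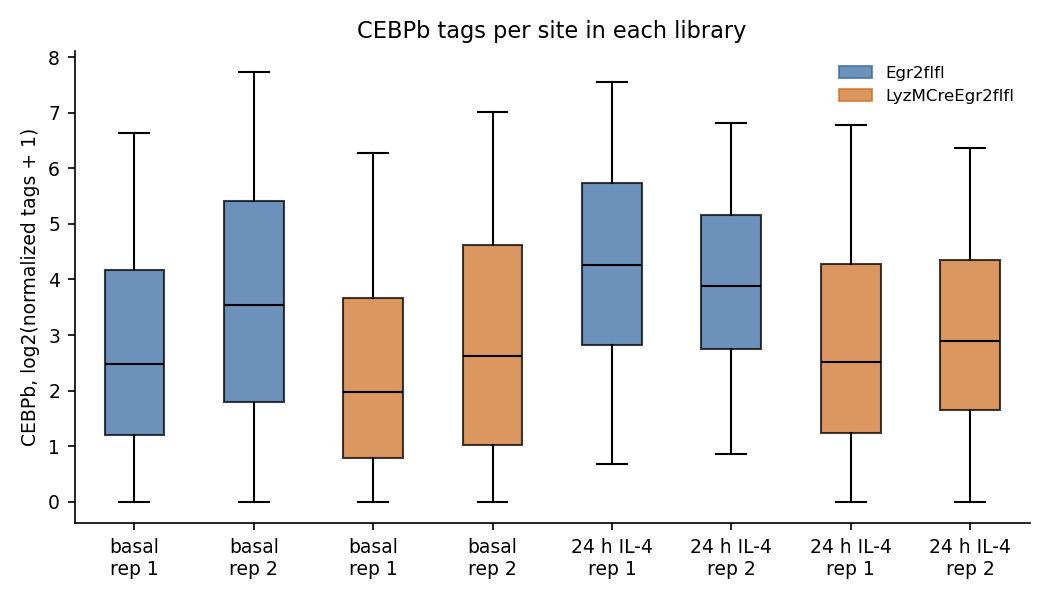
CEBPb tags at the 4677 sites in each of 8 libraries, on the vertical axis as log2(tags + 1). Boxes give the median and quartiles over sites, whiskers the central 90% of sites, and colours the genotype; the 2 Egr2flfl libraries of 24 h have the highest medians of the 8.

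Site by site, 386 sites were lower and 0 were higher in LyzMCreEgr2flfl at 24 h, which is 8.25% of the sites (limma on log2(tags + 1) over all 8 CEBPb libraries, Benjamini-Hochberg adjusted p under 0.05 over all sites). Before adjustment 1288 sites were lower and 7 higher at p under 0.05. The median difference between genotypes was -1.14 on the log2 scale (quartiles -1.86 and -0.55), and 91.4% of the sites had a negative difference. The median SE of a site's difference was 0.89, so that with 2 libraries a group a site of the median difference is not separated from 0. limma shares the spread over all 8 CEBPb libraries and across sites of like level. A site's SE and p-value thus do not measure only the spread of its own libraries of 24 h.

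A rule of size gave a wider view. Of 3254 sites with a mean of at least 8 tags in either genotype, 2372 (72.9%) had both LyzMCreEgr2flfl libraries below both Egr2flfl libraries and 23 (0.707%) had both above. Of the 3254, 1868 (57.4%) were lower and 5 (0.154%) higher with libraries apart in this way and at least 2-fold between means plus 1. Among the 3254 sites, 1343 reached 8 tags in Egr2flfl alone and 19 in LyzMCreEgr2flfl alone, and these had a direction fixed by the filter. The 1892 sites that reached 8 tags in both genotypes had a median difference of -0.86.

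The number of called sites rested on single libraries and on the scale. Without Egr2flfl replicate 1 or LyzMCreEgr2flfl replicate 2 of 24 h no site was called, without Egr2flfl replicate 2 of 24 h the Tgif1 site alone was, and without LyzMCreEgr2flfl replicate 1 of 24 h 86 sites were lower and 1 (near Tox2) higher, while the median difference stayed between -0.99 and -1.36 in every such fit. Scaling each library to its median site moved the median difference from -1.14 to -0.23, called 0 sites and left all 386 differences negative, and the split of lower to higher calls was 38 to 61 by edgeR with TMM, 7 to 109 by DESeq2 and 70 to 172 with median-ratio scaling and a replicate block.

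**Figure D2:**
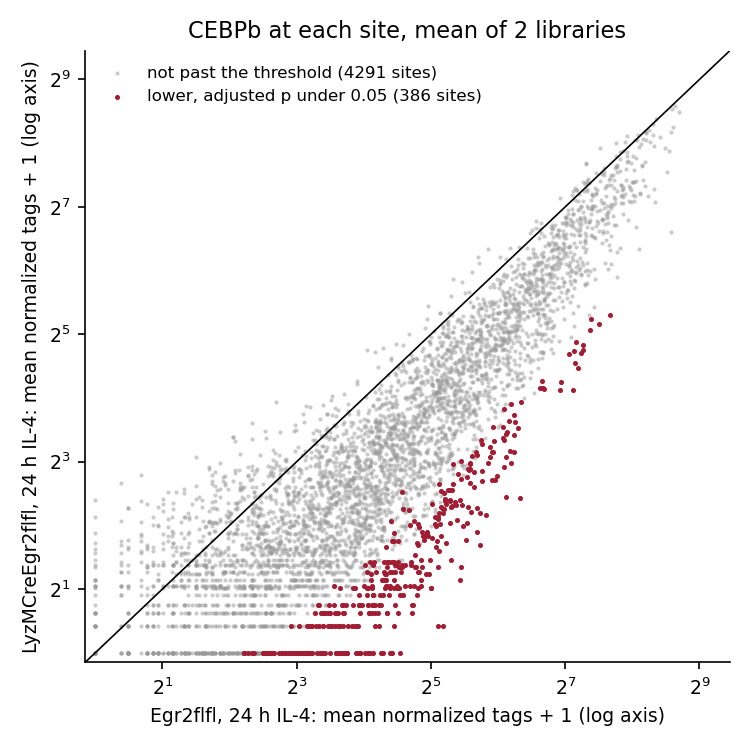
Mean tags plus 1 at each of 4677 sites after 24 h of IL-4, in Egr2flfl (horizontal, log axis) and LyzMCreEgr2flfl (vertical, log axis), each the mean of 2 libraries. The line marks equal values; the 386 called sites, in red, lie below it, as do most grey sites.

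The largest losses left almost no CEBPb tags. The sites named as such here and below were picked by the size of their genotype difference at 24 h. Low values in LyzMCreEgr2flfl and large fold differences at 24 h thus follow from that choice and are given as a description. At an intronic site of Lims1, which encodes a LIM domain adaptor of focal adhesions, CEBPb stood at 45.4 and 25.2 tags in Egr2flfl and 0.68 and 0 in LyzMCreEgr2flfl. That is 106 reads against 1, an 88.4-fold lower value at equal depth (95% counting interval 15.5 to 3525), with adjusted p = 0.00512 by limma. Its basal values were 5.86 and 18 tags in Egr2flfl and 0.73 and 1.03 in LyzMCreEgr2flfl, so the genotypes stood apart there before IL-4 too.

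At a site 25.2 kb upstream of Jarid2, a component of Polycomb repressive complex 2, CEBPb was 38.7 and 28.4 tags against 0.68 and 0 (limma adjusted p = 0.00484). The basal values were 1.30 and 3.27 tags in Egr2flfl and 0 in both LyzMCreEgr2flfl libraries. This is a site that gained CEBPb with IL-4 in Egr2flfl (log2 difference 3.45, limma adjusted p = 0.039).

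The site with the smallest adjusted p lay in an intron of Dlgap1, 72.5 kb from Tgif1, a homeobox repressor of TGF-beta signalling. It held 26 and 18.7 tags in Egr2flfl at 24 h and 0 in all other libraries, the basal Egr2flfl libraries included. With 66 reads in Egr2flfl against 0, CEBPb was at least 18.4-fold lower in LyzMCreEgr2flfl, taking 3 reads for the group at 0 (limma adjusted p = 0.00103). Counting intervals and floors cover counting error only.

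Further sites of the 12 largest losses also stood at 0 in both LyzMCreEgr2flfl libraries. They lay near Gm4969 (21.2 and 19.5 tags in Egr2flfl), Ccnt2, a cyclin of the elongation factor P-TEFb (21.2 and 18.7), Hhat, which acylates Hedgehog proteins (21.8 and 15.4), and Cry1, a repressor of the circadian clock (19.4 and 17.1). Their bounds ran from at least 14.7-fold to at least 16.4-fold lower. At the Cry1 site the basal libraries overlapped between genotypes, at 5.21 and 3.27 tags in Egr2flfl and 7.27 and 3.09 in LyzMCreEgr2flfl.

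The remaining sites of this group kept a few tags. The Hectd4 site, inside a gene for a putative ubiquitin ligase, fell from 43.5 and 40.6 tags to 1.36 and 1.07. The Dennd1b site, near a gene for a Rab35 exchange factor, fell from 57.5 and 43.9 to 5.43 and 0. The Mical2 site, inside a gene for an actin-oxidizing enzyme, fell from 56.8 and 47.1 to 3.39 and 1.07, and the Lemd1 site from 34.5 and 27.6 to 2.04 and 0. All of these were called, with limma adjusted p from 0.00776 to 0.00988, and the last site of the 12 lies on chromosome 18.

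As a set, the 386 called sites had a median of 20.3 tags in Egr2flfl and 1.07 in LyzMCreEgr2flfl, and 83 of them had 0 reads in both LyzMCreEgr2flfl libraries. Of them 232 were intronic, beside 2606 of all 4677 sites. These values follow from how the sites were called and are given as a description.

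**Figure D3:**
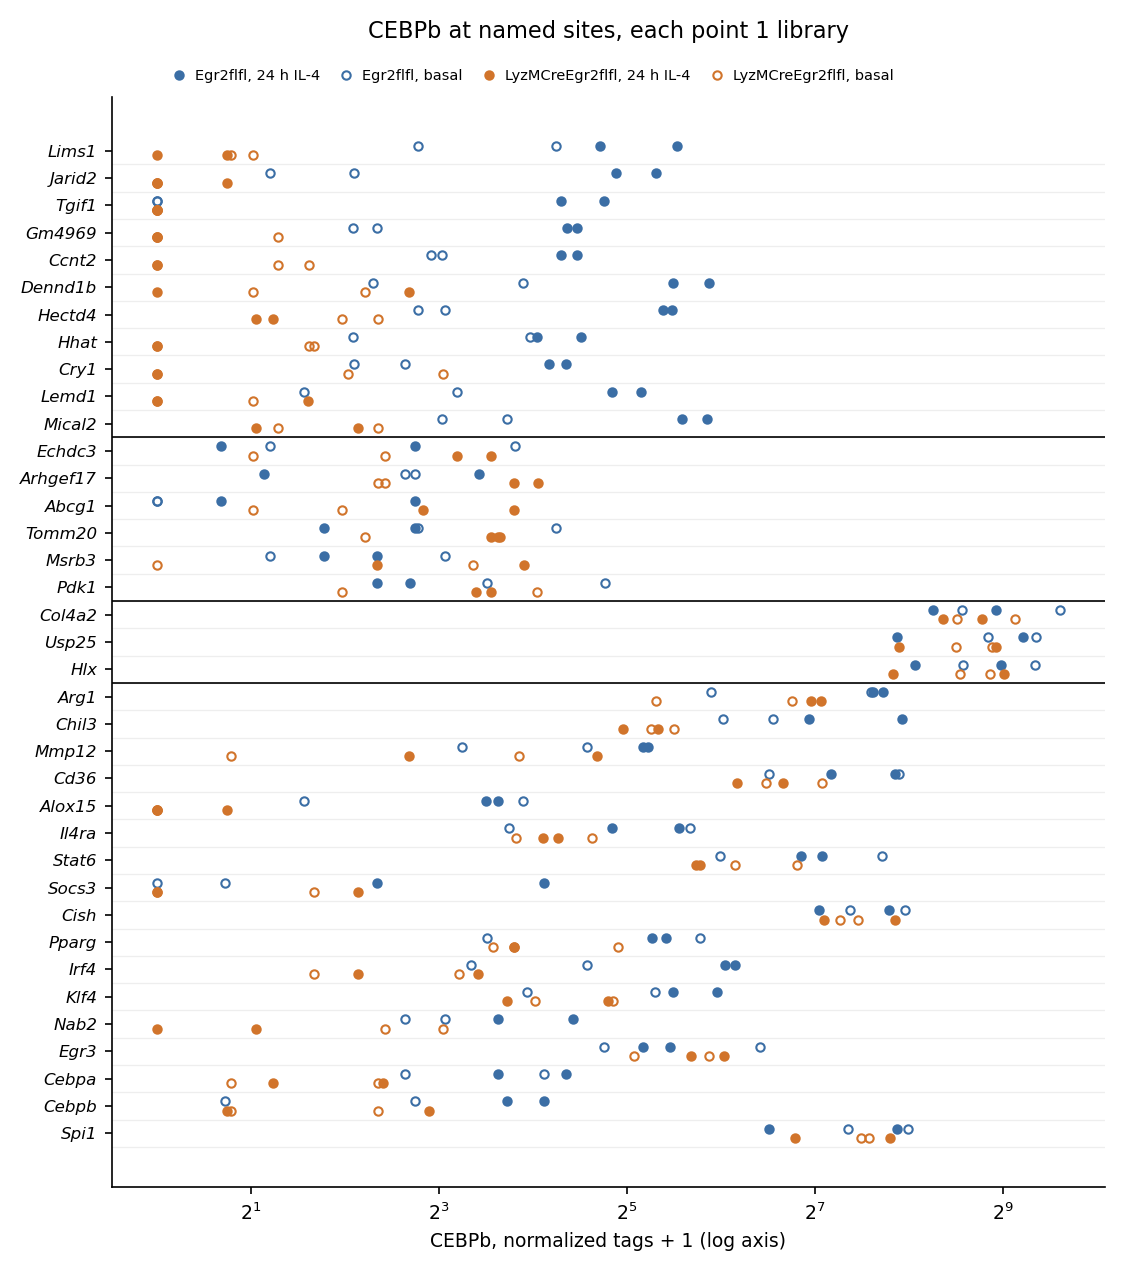
CEBPb tags plus 1 (log axis) in each of 8 libraries at named sites, by gene; blue is Egr2flfl and orange LyzMCreEgr2flfl, filled 24 h IL-4 and open basal. Lines part the largest losses, the largest rises, the 3 highest sites and the sites of listed genes. At the losses, which were picked by the size of their difference at 24 h, the filled orange points stand for 0 to 5.43 tags (the latter at Dennd1b). At the 3 highest sites all colours mix.

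No rise at 24 h passed limma with libraries scaled to their totals. Other scales did call sites higher, 61 by edgeR with TMM, 109 by DESeq2 and 172 with median-ratio scaling and a replicate block. The 6 largest rises with genotypes apart lay at low levels, near Echdc3, Arhgef17, Abcg1, Tomm20, Msrb3 and Pdk1 (limma adjusted p 0.261 to 0.484). Near Arhgef17, in an intron of the UDP receptor gene P2ry6, CEBPb was 1.21 and 9.75 tags in Egr2flfl and 15.6 and 12.9 in LyzMCreEgr2flfl. In an intron of Abcg1, a cholesterol efflux transporter, it was 0.60 and 5.69 tags against 6.11 and 12.9. The first 5 of the 6 genes are those of the 5 sites that were at least 2-fold higher.

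At the 3 sites with the highest mean CEBPb over all libraries the genotypes overlapped. At the site near Hlx, a homeobox gene, the values were 502 and 267 tags in Egr2flfl and 515 and 226 in LyzMCreEgr2flfl. The site in an intron of the collagen gene Col4a1, nearest to the start of Col4a2, held 486 and 304 tags against 438 and 328, and that near the deubiquitinase gene Usp25 held 590 and 233 against 483 and 237. Their log2 differences were -0.10, -0.02 and -0.13 (SE 0.68 each), and these turned to values of 0.62 to 1.16 when libraries were scaled to the sites or to a group of them. These 3 sites do not stand for all sites of high CEBPb. In the top quartile of mean CEBPb tags (1169 sites) the median difference was -0.80, and 708 sites (60.6%) had both LyzMCreEgr2flfl libraries below both Egr2flfl libraries.

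The sites were then split by the authors' CEBPb peaks in C57 macrophages, libraries that took no part in the Egr2 comparison. A basal CEBPb peak was present at 975 sites, a peak at 24 h of IL-4 only at 1060, and no peak at either time at 2642. The median difference between genotypes at 24 h was -0.73 at sites with a basal peak, -1.52 at sites with a peak at 24 h only and -1.22 at sites with no peak, beside -1.14 over all sites. Called lower were 12 (1.23%), 157 (14.8%) and 217 (8.21%) sites, beside 8.25% of all.

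In tags, sites with a basal peak had medians of 110 and 69.9 in Egr2flfl and 52.9 and 45 in LyzMCreEgr2flfl at 24 h. Sites with a 24 h only peak had medians of 36.9 and 25.2 in Egr2flfl and 9.50 and 10.7 in LyzMCreEgr2flfl. In the basal LyzMCreEgr2flfl libraries the latter sites had medians of 5.09 and 11.3 tags, a range that held the values of that genotype at 24 h.

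A ratio within each library does not depend on how the library was scaled. Tags at 24 h only sites over tags at basal peak sites came to 0.366 and 0.387 in the Egr2flfl libraries of 24 h, and to 0.190 and 0.241 in those of LyzMCreEgr2flfl. Basal libraries gave 0.179 and 0.192 in Egr2flfl and 0.147 and 0.176 in LyzMCreEgr2flfl. The genotypes did not overlap at either time (exact permutation test, two-sided, p = 0.333 for each, the smallest p possible), with means of 0.377 ± 0.0149 against 0.216 ± 0.0365 at 24 h and 0.185 ± 0.00893 against 0.161 ± 0.0206 in the basal state (SD, n = 2). After median-ratio scaling the median differences were 0.35 at basal peak sites, -0.50 at 24 h only sites and -0.45 at sites with no peak, so that the order of the classes held while the sign at basal peak sites did not.

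**Figure D4:**
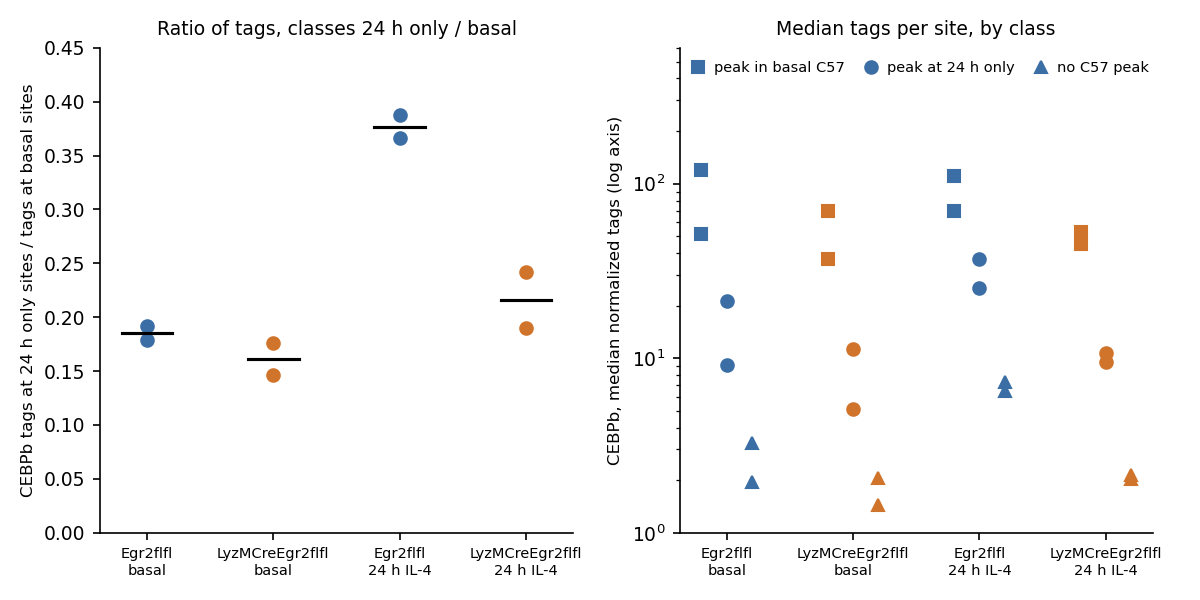
Left, the ratio of CEBPb tags at 24 h only sites to tags at basal peak sites in each library, with a bar at the mean of 2; Egr2flfl libraries of 24 h (0.366 and 0.387) lie above the other 6. Right, the median tags per site (log axis) in each library for sites with a basal C57 peak (squares), a 24 h only peak (circles) or no C57 peak (triangles).

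Classes differed in level as well, and level alone moves a difference on the log2(tags + 1) scale. Among sites with a mean of at least 16 and under 32 tags, the median difference was -1.10 with a basal peak (118 sites) and -1.35 with a 24 h only peak (411 sites). Among those of at least 32 and under 64 tags the medians were -0.85 (306 sites) and -1.22 (139 sites). The gap between classes was smaller at like levels than over all sites.

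CEBPb peaks in 5 strains (C57, BALB, NOD, PWK and SPRET) gave a further split. Sites with a 24 h CEBPb peak in 1 strain had a median difference of -1.55 (510 sites), and sites with a peak in all 5 strains one of -0.82 (919 sites). Those with 2, 3 and 4 strains lay between, at -1.54, -1.41 and -1.14, and sites with a peak in no strain had -1.11 (1971 sites).

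By sequence, the C/EBP motif went with different values in different peak classes. Over all classes, sites with the C/EBP letters had a median difference of -1.15 and those without one of -1.14, while the EGR letters went with -1.24 against -1.06. With both motifs, as at the Lims1 and Jarid2 sites printed above, the median was -1.46 over 371 sites, of which 55 (14.8%) were called lower. At 24 h only sites with a C/EBP motif the median was -1.89 and 51 of 240 (21.3%) were called, against -1.44 and 106 of 820 (12.9%) without it. At basal peak sites with a C/EBP motif, the class of the Hlx site, the median was -0.67, against -0.75 without it. At sites with no C57 peak it was -1.55 with the motif, with 42 of 319 (13.2%) called, against -1.17 and 175 of 2323 (7.53%) without it.

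The other motifs were read in the same way. Sites with the PU.1 letters GGAAGT had a median difference of -1.06, and those without them one of -1.19. With the STAT6 palindrome of TTC and GAA with a spacer the median was -1.02, against -1.17 without it. With the AP-1 letters TGANTCA it was -1.18, against -1.12 without them. In that order, such letters were found in 37.7%, 21.2% and 25.7% of sites. Over quartiles of EGR2 tags in C57 at 24 h, from lowest to highest, the medians were -1.08, -1.11, -1.17 and -1.23. Intronic and intergenic sites had medians of -1.16 and -1.11.

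In the basal state the genotype difference was smaller and no site passed. limma called 0 sites, with 179 lower and 11 higher at an unadjusted p under 0.05, and a median difference of -0.53. Of 2295 sites with at least 8 basal tags in either genotype, 549 (23.9%) had both LyzMCreEgr2flfl libraries lower and 5 (0.218%) both higher, the latter near Ifng, Atp2b1, Ccl4, Kcnrg and Spdye4c. Of the 2295, 539 reached 8 tags in Egr2flfl alone and 36 in LyzMCreEgr2flfl alone, and these had a direction fixed by the filter. edgeR and DESeq2 also called no basal site. The genotype difference at 24 h minus that in the basal state had a median of -0.57, but no site passed for this interaction (314 with an unadjusted p under 0.05, smallest limma adjusted p = 0.264), so a greater loss at 24 h was not shown for any single site. edgeR and DESeq2 called none either.

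With libraries scaled to their totals, IL-4 raised CEBPb at some of these sites in Egr2flfl. There 98 sites (2.1%) were higher and 0 lower at 24 h than in the basal state (limma, adjusted p under 0.05, with 847 higher and 5 lower before adjustment), and the median change was 0.74 on the log2 scale. The direction of the calls depended on the scale, with 83 higher and 127 lower by edgeR with TMM, 38 higher and 85 lower by DESeq2, 60 higher and 212 lower with median-ratio scaling and a replicate block, and 3 higher and 0 lower with median-ratio scaling. In LyzMCreEgr2flfl the median change was 0.06, and limma called 0 sites (163 higher and 36 lower at an unadjusted p under 0.05, smallest adjusted p = 0.0667). Of the 98 raised sites, 33 had a 24 h only C57 peak, 64 had no C57 peak and 1, near 1700021F07Rik, had a basal peak. That is 3.11%, 2.42% and 0.103% of the sites of each class, beside 2.1% of all. Among all 24 h only sites the median change was 1.07 in Egr2flfl and 0.24 in LyzMCreEgr2flfl, and at basal peak sites 0.04 and -0.12. These contrasts share libraries with the genotype contrast at 24 h, and the count in Egr2flfl fell to 0 without its basal replicate 1 or its 24 h replicate 1, to 1 (Tgif1) without its 24 h replicate 2 and to 10 without its basal replicate 2.

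Genes of the IL-4 response were read through the site with the most CEBPb within 50 kb of their start. Of 62 listed genes, 43 had such a site, on 42 distinct sites. At 24 h 4 of them were lower, those of Chil3, Alox15, Irf4 and Nab2, and none was called higher. A share of this order was called over all sites (8.25%), and 91.4% of all sites had a negative difference.

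Among 20 genes of alternative activation, 14 had a site (13 distinct sites, since Mgl2 and Clec10a share a site), 2 were called and the difference was negative at each, with a median of -0.80 beside -1.14 over all sites. Over all 32 sites near these genes the median was -0.85, and 3 were called lower. Near Chil3, which encodes the secreted lectin Ym1, CEBPb was 241 and 121 tags in Egr2flfl and 39.4 and 30.0 in LyzMCreEgr2flfl (log2 difference -2.28 ± 0.72, SE, limma adjusted p = 0.0317). The basal values there were 63.8 and 93.1 tags against 44.3 and 37.1, so in LyzMCreEgr2flfl the site had no more CEBPb after IL-4 than before. Near Alox15, a lipoxygenase induced by IL-4, CEBPb was 10.3 and 11.4 tags against 0.68 and 0 (-3.19 ± 0.98, limma adjusted p = 0.0283).

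The site 2.9 kb upstream of Arg1, the arginase of alternatively activated macrophages, kept much of its CEBPb. It held 210 and 195 tags in Egr2flfl and 133 and 123 in LyzMCreEgr2flfl, with a log2 difference of -0.66 ± 0.70 that did not pass (limma adjusted p = 0.514) and was 0.44 with libraries scaled to the sites. Near Mmp12, a macrophage elastase, the values were 36.3 and 34.9 tags against 5.43 and 24.7 (limma adjusted p = 0.244). In Cd36, a scavenger receptor, they were 230 and 143 against 100 and 70.8 (-1.10 ± 0.70, limma adjusted p = 0.285; 0.076 by edgeR with TMM and 0.016 by DESeq2).

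Among 12 genes listed as IL-4-induced regulators, all had a site, 2 were called and 11 differences were negative (median -0.95). Of these 12 sites, 8 reached a mean of 8 tags in either genotype at 24 h. Over all 23 sites near these genes the median was -1.46, and 2 were called lower. The list also holds Egr3, while the paper names only Egr2 of that family as rapidly induced by IL-4. Induction of the listed genes was not measured here. Near Irf4, a transcription factor of alternative activation, CEBPb was 64.7 and 69.9 tags in Egr2flfl and 3.39 and 9.65 in LyzMCreEgr2flfl (-3.32 ± 0.88, limma adjusted p = 0.0171). The Nab2 site, an intron of Lrp1 49.2 kb from the start of this corepressor of EGR factors, held 20.6 and 11.4 tags against 0 and 1.07 (-3.50 ± 1.02, limma adjusted p = 0.0208). Near Pparg, a lipid-activated nuclear receptor, CEBPb was 41.7 and 37.4 tags against 12.9 and 12.9 (-1.54 ± 0.81, limma adjusted p = 0.193), and near Klf4 it was 61.1 and 43.9 against 12.2 and 26.8. Both sites had the genotypes apart without passing the test. Near Egr3, a paralogue of Egr2, CEBPb was higher in LyzMCreEgr2flfl, at 35.1 and 43.1 against 64.5 and 50.4 tags, a difference of 0.54 ± 0.74 that did not pass (limma adjusted p = 0.619). The site inside Egr2 had at most 2.44 tags in any library, too few for a comparison.

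IL-4 signalling genes had 7 sites for 10 genes, none called and 6 negative (median -0.78). Over all 14 sites near these genes the median was -1.04, and 1 was called lower. In Il4ra, the receptor chain, CEBPb was 46.0 and 27.6 tags against 16.3 and 18.2 (-1.01, limma adjusted p = 0.394), a difference that was 0.050 with libraries scaled to the sites. At the site in Lrp1 nearest the start of Stat6, the values were 134 and 115 tags against 52.2 and 53.6 (-1.21, limma adjusted p = 0.243). Near Socs3, an inhibitor of cytokine signalling, they were 16.3 and 4.06 against 3.39 and 0 (-2.16, limma adjusted p = 0.11). At the site 32 kb from Cish, another inhibitor of this family, the genotypes overlapped, at 220 and 131 tags against 230 and 136.

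Of 6 genes of the CEBP family, 4 had a site, none called and all 4 negative (median -1.60). Near Cebpb itself CEBPb was 16.3 and 12.2 tags against 0.68 and 6.43 (-2.10, limma adjusted p = 0.161), and near Cebpa 19.4 and 11.4 against 1.36 and 4.29 (-2.17, limma adjusted p = 0.143). Of 10 macrophage lineage genes, 4 had a site, with 2 differences negative and none called (median -0.27, but 0.10 over all 5 sites near these genes). In Spi1, the gene of PU.1, CEBPb was 234 and 90.2 tags against 222 and 109, without separation. Of 4 example genes of the study, Msx3 and Ripk2 had a site (-0.61 and 0.15), and neither was called.

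Markers were used to check the cell type. A site lay within 50 kb of 4 of 9 macrophage markers, 3 of 5 neutrophil, 1 of 3 dendritic cell and 1 of 3 lymphocyte markers. Among the macrophage markers CEBPb reached 253 tags at Spi1, 71.8 near Adgre1, 21.2 near Mpeg1 and 20.6 at Csf1r. It reached at most 17.5 tags near the neutrophil markers S100a8, Mpo and Camp, 15.1 near the dendritic cell marker Zbtb46 and 19.4 near the lymphocyte marker Cd79a. A window that was chosen for EGR2 near a marker does not measure that gene, so the makeup of the cultures was not tested.

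The same sites were read for PU.1, STAT6, PPARg and H3K27ac, the last an acetylation of active enhancers, in separate libraries of the same genotypes. At 24 h, PU.1 was lower at 438 sites (9.36%, median difference -0.33) and higher at 4 (0.0855%), sites near Rel and Fchsd2 among them. H3K27ac was lower at 1087 sites (23.2%, median -0.50) and higher at 66 (1.41%). STAT6 was lower at 1 site near BC017158 (0.0214%, median -0.79) and PPARg at 0 sites (limma; 670 with an unadjusted p under 0.05, median -1.28). The PPARg libraries were sparse, with a median of 0 tags in a LyzMCreEgr2flfl library. Calls for each of these signals come from a single fit with libraries scaled to their totals. How these calls, and their overlaps with CEBPb below, depend on the scale was not tested.

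Where CEBPb was called lower, the other signals were mostly lower as well. At these 386 sites the median difference was -1.10 for PU.1, -1.17 for STAT6, -1.79 for PPARg and -1.43 for H3K27ac, each further from 0 than over all sites. Both CEBPb and PU.1 were called lower at 102 sites, which is 26.4% of the CEBPb and 23.3% of the PU.1 calls. Both CEBPb and H3K27ac were called at 197 sites, 51.0% of the CEBPb and 18.1% of the H3K27ac calls. At the Chil3 site PU.1 (-1.58, limma adjusted p = 0.0035) and H3K27ac (-2.63, limma adjusted p = 0.004) fell with CEBPb. At the Lims1 site PU.1 was at or under 1.24 tags and H3K27ac at or under 6.03 in every library of 24 h, too low to show a fall.

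The genotype difference of CEBPb was tested against that of the other factors in a fit over 16 libraries of 24 h. Against the mean of PU.1, STAT6 and PPARg, limma called 0 sites (237 with an unadjusted p under 0.05, 199 of them lower for CEBPb), with a median of -0.31. The median was -0.76 against PU.1, -0.35 against STAT6 and 0.14 against PPARg. Against PPARg alone, 6 sites (0.128%) were called, with a difference higher for CEBPb. No single site lost CEBPb to a degree that differed from the mean of the other factors beyond the spread between libraries, and the median against them turned to 0.16 with libraries scaled to the sites.

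**Figure D5:**
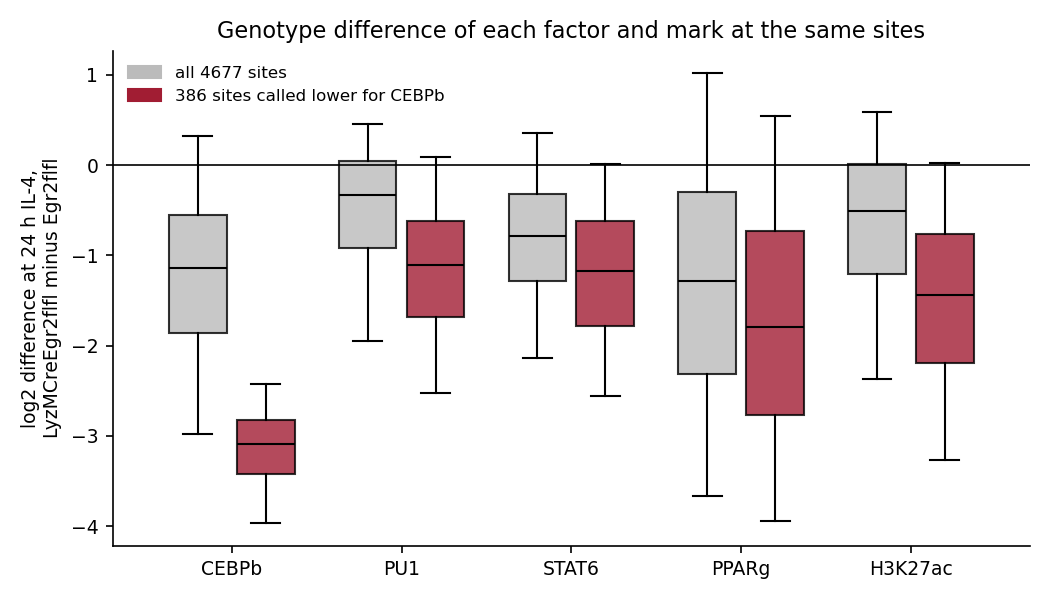
Log2 difference between genotypes (LyzMCreEgr2flfl minus Egr2flfl) at 24 h of IL-4 for CEBPb, PU.1, STAT6, PPARg and H3K27ac, over all 4677 sites (grey) and over the 386 sites called lower for CEBPb (red). Boxes give median and quartiles and whiskers the central 90% of sites; the CEBPb red box lies low because CEBPb chose those sites, while the other 4 red boxes come from other libraries.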

How the data were processed

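CEBPb ChIP-seq was measured in bone marrow-derived macrophages of both Egr2 genotypes, basal and at 24 h of IL-4. Per the study's methods and the submitters' processing notes, reads were aligned with bowtie2 and placed on mm10. The deposited signal values are HOMER tags counted by the authors in 300 bp around each site (1000 bp for H3K27ac) and scaled so that each library's total equals 10000000, as the file headers say. The deposited peak lists, with a score per peak by the authors' caller, hold peaks reproducible between replicates. Here only the positions of peaks were used, with an overlap of at least 1 bp. Another 4 columns of values in the tables fit no sample by name and were not used.

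Undoing that scaling returned integers for 100% of 37416 CEBPb values (tolerance 0.1 read), and these reads served the count tests. Libraries of 9325865 to 16536497 tags make sites under a few tags imprecise. The main test was limma 3.58.1 with trend on log2(tags + 1), over 8 libraries with a mean per group, with Benjamini-Hochberg adjustment over 4677 sites and a threshold of 0.05. The study compared distributions over sites, and sites of a library are not replicates, so the test here runs per site across libraries. Fold differences understate change at low tags. Alternatives were a pseudocount of 5, a filter of 8 tags, median-ratio scaling, the 4 libraries of a contrast alone, a replicate block, edgeR 4.0.16 (with library totals, and with TMM), DESeq2 1.42.0 and leaving out each library. Scaling to basal peak sites, the block together with median-ratio scaling, and the ratio of peak classes were added after seeing the data. Exact permutation tests used scipy 1.17.1, and scripts were tested on simulated data.

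Named sites were the 12 largest losses and 6 largest rises among sites of at least 8 tags with genotypes apart, the 3 sites with the highest mean, and, for each gene of the lists, its highest CEBPb site within 50 kb. Members and lists were chosen with earlier results of these data known. Motifs and sequences come from the GRCm38.p6 reference, whose coordinates match the files' build, and nearest genes from its annotation. A few sites and sequences are not reported here.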

Additional observations from a re-analysis of the deposited data

How the results depend on the processing

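The number of sites lower at 24 h (386) was 730 with a pseudocount of 5, 135 with a filter of 8 tags, 72 by edgeR with library totals, 38 by edgeR with TMM, 7 by DESeq2, 1 (near Marcks) with scaling to basal peak sites and 0 with median-ratio scaling or with the 4 libraries of 24 h alone; it ranged from 0 to 412 when a library was left out. The 386 differences stayed negative in these fits, wherever a site was kept. The number higher (0) was 1 (near Ppp1r15b) with a pseudocount of 5, 61 with TMM, 109 by DESeq2 and 0 to 1 when a library was left out. By the rule of size, median-ratio scaling gave 548 lower and 170 higher; the number higher (5) was 9 at 1.5-fold, 38 without the filter, 0 with at least 16 tags or a pseudocount of 5, and 9 to 32 when a library was left out. The basal median difference turned to 0.0088 by DESeq2. Median tags gave a ratio of 0.35 between genotypes, and summed tags 0.534.

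The IL-4 response in Egr2flfl (98 higher, 0 lower) gave 425 higher with a pseudocount of 5, 14 with the filter, 3 (near Gpr65, Rnf19b and Klhl25) with median-ratio scaling, 34 with scaling to basal peak sites, 37 with the 4 libraries alone, 19 by edgeR with library totals, 83 with TMM, 38 by DESeq2 and 0 to 118 when a library was left out. Sites lower were 1 (near Fam98c) with a pseudocount of 5, 127 with TMM and 85 by DESeq2. In LyzMCreEgr2flfl (0 and 0), sites higher were 1 with the filter (a site 12 kb from Cish, other than the site 32 kb away), 2 with median-ratio scaling (this site and Gpr65), 5 with scaling to basal peak sites (this site, Gpr65, Rnf19b, Trib2 and Dthd1), 47 with TMM and 17 by DESeq2. Sites lower were 5 with TMM (Marcks, Stx8, Ly75, Pld1 and Slc7a11) and 1 (Pld1) by DESeq2. The median change there ranged from -0.25 to 0.41 when a library was left out. Against the other factors, a pseudocount of 5 gave 5 sites lower, those near Lims1, Wipi1 and Ssbp1 among them, and median-ratio scaling a median of 0.16.

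The replicate numbers that groups share mark no stated pairing, and deviations of same-numbered libraries correlated at 0.06 to 0.23. With a replicate block 545 sites were lower at 24 h, all 386 among them, and IL-4 raised 156 sites in Egr2flfl and 1, again 12 kb from Cish, in LyzMCreEgr2flfl; the block alone changed no other call named here. With the block and median-ratio scaling together, 70 sites were lower (67 of the 386) and 172 higher at 24 h, IL-4 raised 60 and lowered 212 sites in Egr2flfl and raised 52 and lowered 19 in LyzMCreEgr2flfl, and the median difference was -0.23 at 24 h. Single sites then had the same differences as with median-ratio scaling alone.

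Single sites changed sign with scaling, in the order median-ratio, basal peak sites, TMM and DESeq2: Col4a2 to 1.08, 0.73, 1.15 and 1.09; Usp25 to 0.96, 0.62, 1.05 and 0.99; Hlx to 1.00, 0.65, 1.16 and 1.10; Arg1 to 0.44, 0.0897, 0.50 and 0.43. Cd36 turned to 0.076 with TMM and 0.016 by DESeq2, and Il4ra to 0.050 with median-ratio scaling, 0.094 with TMM and 0.038 by DESeq2. When a library was left out, differences ran from -0.36 to 0.32 at Col4a2, -0.80 to 0.54 at Usp25, -0.69 to 0.49 at Hlx, -0.32 to 0.44 at the Cish site 32 kb away and -0.58 to 0.78 at Spi1. The causes of these shifts were not tested. With 2 libraries per group, and few reads at low sites, depth limits statements on sites under a few tags.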

Other observations

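Sites with an EGR2 peak at earlier times of IL-4 were described apart. Sites with an EGR2 peak at 24 h alone (3870) had a median CEBPb difference between genotypes of -1.15 at 24 h, and 345 were called lower (8.91%). Sites with peaks at 6 h and 24 h (650) had -1.11 and 36 calls (5.54%), and sites with peaks at 1 h, 6 h and 24 h (120) had -1.06 and 3 calls (2.50%). Those with peaks at 1 h and 24 h (37) had -0.69 and 2 calls (5.41%). The quartiles of single sites over the whole set were -1.86 and -0.55, which do not measure the spread of a group's median. No test was made between the groups of sites.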
